A study of Glycine max with 2 samples.

Results

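Soybean genes annotated with cysteine-type peptidase activity that overlapped a differentially methylated region (DMR) between NJCMS5A and NJCMS5B are described here. They are the genes that the deposited Gene Ontology (GO) table lists for the term cysteine-type peptidase activity. The term held 7 differentially methylated genes (DMGs), of 334 DMGs in the GO table and 485 DMGs in all. These 7 genes were annotated to 11 DMRs, of 3527 in the series.

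NJCMS5A is a soybean line with cytoplasmic male sterility (CMS), and NJCMS5B, also named Wandou28, is its fertile maintainer. The sterile line came from crosses of NJCMS1A that were backcrossed to NJCMS5B, generation after generation. Flower buds of different sizes were taken at the full-bloom stage and pooled within each line, so each library mixes floral organs and stages of pollen development. Genomic DNA of each pool was bisulfite treated, which converts unmethylated cytosines and leaves methylated ones, and made into 1 whole-genome library per line. The methylation level of a DMR is the share of its cytosine calls still read as cytosine. With 1 library per line, every comparison is between 2 libraries, and a difference between the lines cannot be told apart from a difference between the libraries. Methylation alone is described; no expression value was analysed here.

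Cysteine peptidases cut peptide bonds with a cysteine in the active site. In plants, papain-like members of this class act in protein turnover, seed reserve breakdown and programmed cell death. The tapetum, the inner layer of the anther wall that feeds the developing pollen, is removed by programmed cell death, and in Arabidopsis the papain-like protease CEP1 takes part in that process. Methylated cytosines in plants occur in CG, CHG and CHH contexts, in gene bodies as well as in promoters, and the values here pool all contexts.

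Among the members, Glyma.U045200 is the gene that the study predicted to encode a homolog of Arabidopsis CEP1. Its sequences are shown because they mark which bases bisulfite treatment changes. The study designed an RT-PCR primer pair for the transcript and a nested primer pair for bisulfite-treated DNA. Capitals mark the 3 cytosines of the RT-PCR forward primer that the nested bisulfite forward primer carries as thymines, over the 19 bases that both primers share after conversion.
RT-PCR forward: aCaaagggtgtggaCCaagg
Bisulfite forward, nested: tgtgataTaaagggtgtggaTTaag
RT-PCR reverse: ttgttggcagggacatcctc
Bisulfite reverse, nested: tcaaaaccactaacatcaataactac
All are written 5′ to 3′ and were designed on scaffold_97. The bisulfite forward primer therefore lies on the stretch that the RT-PCR forward primer matches, and it has the form of a converted strand. In the study's list of primers, this cloned region lies beyond the end of the DMR of Glyma.U045200, so it holds other cytosines than those of the level given here.

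Methylation went both ways in these genes. The level was lower in NJCMS5A in 5 of the 11 DMRs (55.8% of all 3527 DMRs were lower) and higher in 6 (44.2% of all DMRs). Of the 600 DMRs annotated to a gene, as all of these are, 64.8% were lower and 35.2% higher. By gene, Glyma.U045200 and Glyma.U044800 were hypo-methylated in NJCMS5A at their only DMR. Glyma.U018900 and Glyma.U027200 were hyper-methylated at their only DMR, and Glyma.U016900, Glyma.U020000 and Glyma.15G179000 carried DMRs of both directions. That made 2 genes with lower DMRs only, beside 57.9% of the 485 DMGs, and 2 with higher DMRs only, beside 18.1%. DMRs of both directions were present in 3 of the 7, beside 23.9% of the DMGs. The DMRs of Glyma.15G179000 lie on another sequence than its name gives, and without such pairs 2 genes had both directions. With 7 genes, these shares are a description of the members. Where both libraries had to reach a depth of 10, 3 lower and 2 higher DMRs were left, and at a difference of 20 percentage points only the lower DMRs of Glyma.U045200 and Glyma.U044800. The shares of all DMRs under these filters were not computed. Over all DMRs, the median absolute difference was 16.5 percentage points for lower and 16.9 for higher DMRs.

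**Figure D1:**
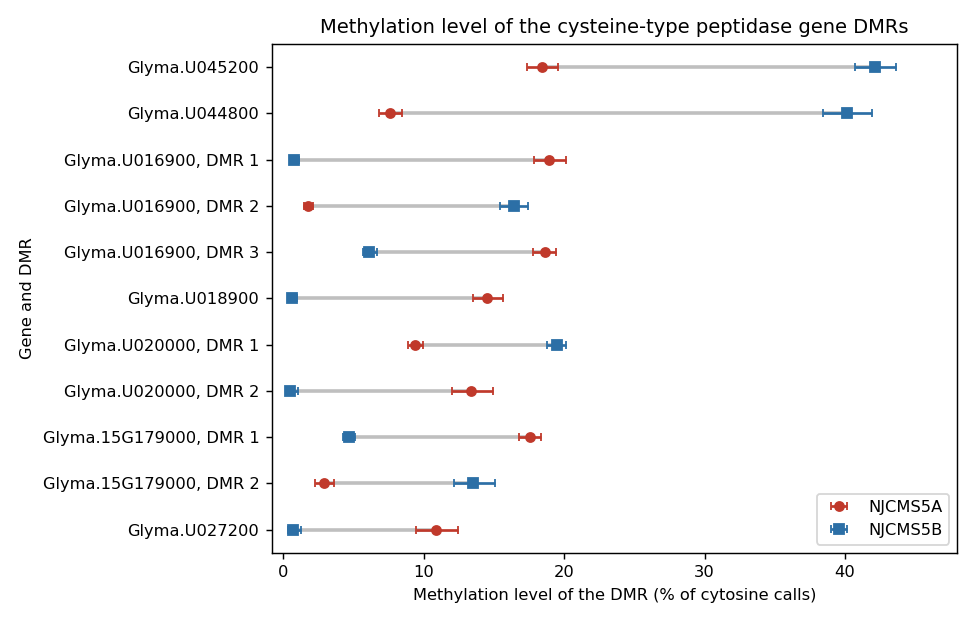
Methylation level of each of the 11 DMRs, in percent of cytosine calls, in NJCMS5A (red circles) and NJCMS5B (blue squares), with 95% Wilson intervals that cover counting error only. The DMRs of Glyma.U045200 and Glyma.U044800 reach 42.2% and 40.1% in NJCMS5B, while no DMR is above 19.0% in NJCMS5A.

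The DMRs had been called on this same contrast, so their differences describe the members and are no independent evidence that a member differs. The two-sided Fisher's exact test of these calls, with Benjamini-Hochberg adjustment over all DMRs, passed an adjusted p of 0.05 in all 11 (100% of the 3527 DMRs passed), with a largest adjusted p of 2.45e-36. The calls came to 59191 in NJCMS5A and 55606 in NJCMS5B over the 11 DMRs. Neighbouring cytosines of the same read are not independent, so intervals and p-values cover counting error at most. With every cytosine given the weight of a single call, the largest adjusted p among the 11 was 0.00144 by the same Fisher's exact test, and 82.8% of all DMRs passed.

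In size, most of these differences lay below the median of all DMRs. The absolute difference ranged from 10.1 to 32.6 percentage points with a median of 12.9, beside a median of 16.7 and quartiles of 12.4 and 22.0 over all DMRs. Only the DMRs of Glyma.U044800 and Glyma.U045200 lay above that upper quartile. Over the 600 DMRs annotated to a gene, the medians were smaller, 13.3 percentage points for lower and 13.1 for higher DMRs. Those of the members were close to these, 14.7 for lower and 12.9 for higher DMRs. The DMRs of the members were longer, with a median of 1959 bp beside 1135 bp over all DMRs, and held a median of 366 cytosines beside 215. Length and cytosines were not compared with the 600 DMRs annotated to a gene, so greater length is not shown to be particular to the members. All 11 lay on unplaced scaffolds, as did 91.2% of all DMRs. Those of 4 genes lay within 508 kb of scaffold_21, the sequence with the most member DMRs (8 of its 750 DMRs).

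Glyma.U045200 had 1 DMR, at scaffold_97 from 57136 to 58793, which overlapped its promoter and an exon. Its level was 18.5% in NJCMS5A (860 of 4661 calls, 95% Wilson interval 17.4 to 19.6) and 42.2% in NJCMS5B (1916 of 4545 calls, 40.7 to 43.6). The difference was -23.7 percentage points (95% Newcombe interval -25.5 to -21.9; Fisher's exact test, adjusted p = 4.76e-137). It was larger than the difference in 80.5% of all DMRs. Depth was nearly equal over the 366 cytosines of this DMR, 12.7 calls per cytosine for NJCMS5A against 12.4 for NJCMS5B. The nearest DMR, 1702 bp away and annotated to no gene, had nearly the same levels, 18.4% in NJCMS5A and 42.1% in NJCMS5B. There the depth was 12.3 in NJCMS5A and 34.5 in NJCMS5B. The part of depth in these levels was not tested.

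Glyma.U044800, annotated as a cysteine-type endopeptidase in proteolysis like Glyma.U045200, lay on the same scaffold, and 51278 bp separated the DMRs of these genes. Its DMR, from 3741 to 5857 over an exon and an intron, had the largest difference of the 11. The level was 7.60% in NJCMS5A (305 of 4015 calls, 6.82 to 8.46) and 40.1% in NJCMS5B (1186 of 2954 calls, 38.4 to 41.9). That is a difference of -32.6 percentage points (-34.5 to -30.6; Fisher's exact test, adjusted p = 2.27e-239), the 210th largest of the 3527 DMRs. Its depth in NJCMS5B, 7.44, was the lowest of any member DMR in either library, and the depth in NJCMS5A was 10.1. Of the 13 DMRs on scaffold_97, 8 were lower and 5 higher in NJCMS5A. Both DMRs within 10 kb of that of Glyma.U044800 were lower as well, with 17.8% in NJCMS5A against 37.0% in NJCMS5B at 785 bp and 15.5% against 35.5% at 3088 bp. In these neighbours the depth was also unequal, 16.2 against 8.52 and 15.1 against 7.94.

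Glyma.U016900 carried 3 DMRs within 7100 bp of scaffold_21, and their direction alternated along the gene. It is annotated to cysteine-type peptidase activity and proteolysis and, alone among the 7, not to the endopeptidase term. From 2805781 to 2807877, over an exon and an intron, the level was 19.0% in NJCMS5A (17.9 to 20.1) and 0.783% in NJCMS5B (0.542 to 1.13). After 43 bp, the next DMR, from 2807921 to 2809879 over exon, intron and promoter, had 1.76% in NJCMS5A (1.46 to 2.12) and 16.4% in NJCMS5B (15.4 to 17.4). From 2810487 to 2812880, annotated to the promoter only, it was 18.6% in NJCMS5A (17.8 to 19.5) and 6.14% in NJCMS5B (5.66 to 6.65). With 2394 bp, this last DMR is longer than a promoter, taken as 2 kb, so its level also covers other sequence. The body of the gene was thus overlapped by a DMR of each direction, and so was its promoter. The differences were 18.2, -14.7 and 12.5 percentage points, and over the 3 DMRs together the level was 13.4% in NJCMS5A and 8.13% in NJCMS5B. That pooled difference of 5.31 percentage points was 12.5 without the 2 DMRs whose depth in NJCMS5B was under 10. A DMR that ended 1 bp before the first was of the opposite direction to it, with 0.331% in NJCMS5A and 13.3% in NJCMS5B. On the other side, the next DMR, 1500 bp past the promoter DMR, had 11.9% in NJCMS5A and 1.80% in NJCMS5B, the same direction as that DMR. The promoter DMR was also annotated to Glyma.U017000 (exon, intron and 3′UTR) and to the 3′UTR of Glyma.16G011800 and Glyma.06G244200, so it does not belong to the peptidase gene alone.

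Glyma.U020000 had 2 DMRs of opposite direction that overlapped its promoter, with 15 bp between them. The GO table gives this gene cysteine-type and serine-type endopeptidase activity and also RNA-directed RNA polymerase activity, but not proteolysis. The DMR from 3308425 to 3313119 of scaffold_21, the longest of the 11 with 4695 bp and 1034 cytosines, had a level of 9.40% in NJCMS5A (8.88 to 9.94) and 19.5% in NJCMS5B (18.8 to 20.2). It was also annotated to the promoter, 5′UTR, exon and intron of Glyma.U019900. This DMR is longer than a promoter, taken as 2 kb, so its level also covers sequence outside the promoter. The DMR from 3313135 to 3314121 had 13.4% in NJCMS5A (12.0 to 14.9) and 0.499% in NJCMS5B (0.229 to 1.08), from 6 methylated calls of 1203 in NJCMS5B. The first difference, -10.1 percentage points, was the smallest of the 11, and 1.53% of all DMRs had a smaller one. The second was 12.9 percentage points. The depth of the second DMR was 14.4 in NJCMS5A and 8.30 in NJCMS5B, the most unequal of the 11.

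**Figure D2:**
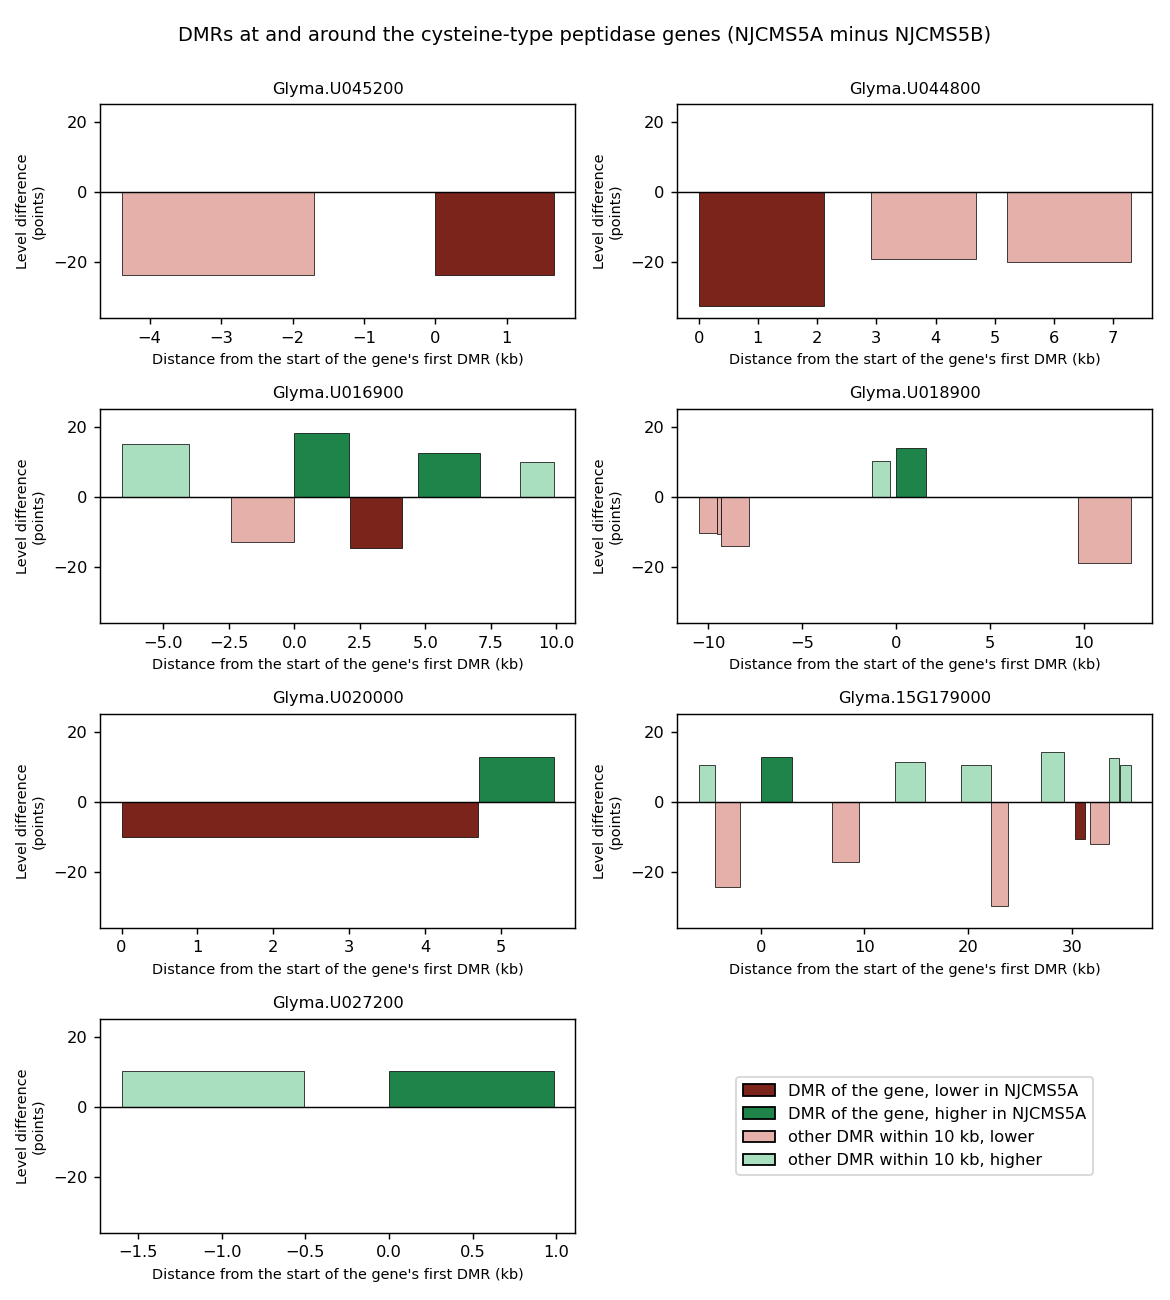
Difference in methylation level, NJCMS5A minus NJCMS5B in percentage points, of each DMR within 10 kb of a DMR of the 7 genes, against the distance in kb from the start of the gene's first DMR. Dark bars are DMRs of the gene and light bars are other DMRs. The 3 dark bars of Glyma.U016900 alternate in direction, and all bars are below 0 at Glyma.U045200 and Glyma.U044800.

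Such adjoining changes of direction were frequent in the series. Of the 411 pairs of consecutive DMRs at most 100 bp apart, 341 (83.0%) had opposite directions, and so had all 3 pairs that held a member DMR. Likewise, 116 (77.9%) of the 149 DMGs with more than 1 DMR had both directions, and so had all 3 such members. DMRs were called in sliding windows, and the part of that calling in these shares was not tested. Within 10 kb of the 11 DMRs lay 22 other DMRs, 12 of them lower and 10 higher in NJCMS5A.

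Glyma.15G179000, annotated as a cysteine-type endopeptidase in proteolysis, was joined to 2 DMRs through its UTRs alone. Its name places the gene on chromosome 15, whereas both DMRs lie on scaffold_21 and are 27337 bp apart. From 2892581 to 2895580, annotated to its 3′UTR, the level was 17.6% in NJCMS5A (16.8 to 18.4) and 4.69% in NJCMS5B (4.28 to 5.13). From 2922918 to 2923876, annotated to its 5′UTR, it was 2.87% in NJCMS5A (2.26 to 3.65) and 13.5% in NJCMS5B (12.2 to 15.1). The first was therefore 12.9 percentage points higher and the second 10.7 percentage points lower in NJCMS5A. Across the annotation, 84 of 739 pairs joined a DMR to a gene named for another sequence, each by UTRs only. Both DMRs were shared with Glyma.U017400 and Glyma.18G079700, and the first also with Glyma.13G295100. Glyma.U017400 spanned 10 DMRs there, 6 lower and 4 higher in NJCMS5A, and the directions alternated along its first 9. By its name, the gene lies elsewhere than these DMRs, so their levels are those of the scaffold.

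Glyma.U018900 had 1 DMR, in its promoter at scaffold_21 from 3185162 to 3186754. The GO table pairs its cysteine-type endopeptidase and exopeptidase terms with beta-galactosidase activity, an enzyme of carbohydrate breakdown, and UDP-glucose metabolic process. The level was 14.5% in NJCMS5A (615 of 4230 calls, 13.5 to 15.6) and 0.632% in NJCMS5B (19 of 3004 calls, 0.405 to 0.986), a difference of 13.9 percentage points. A further DMR without a gene, 302 bp away, had 10.9% in NJCMS5A and 0.753% in NJCMS5B, the same direction. The other 4 DMRs within 10 kb were lower in NJCMS5A.

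Glyma.U027200 had 1 DMR, in its promoter at scaffold_265 from 3370 to 4354, with the fewest cytosines of the 11 (137). Its terms combine cysteine-type endopeptidase activity and proteolysis with DNA binding, ATP binding and helicase activity, the unwinding of nucleic acid strands. It was the only member in the deposited KEGG pathways, as the only DMG of homologous recombination. The level was 10.9% in NJCMS5A (182 of 1675 calls, 9.46 to 12.4) and 0.680% in NJCMS5B (9 of 1324 calls, 0.358 to 1.29), a difference of 10.2 percentage points (Newcombe interval 8.66 to 11.8). At 505 bp lay a DMR without a gene that had 10.8% in NJCMS5A and 0.583% in NJCMS5B.

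The hyper-methylated DMRs had low levels in NJCMS5B. In 4 of the 6, namely the first of Glyma.U016900, the second of Glyma.U020000 and those of Glyma.U018900 and Glyma.U027200, the NJCMS5B level was between 0.499% and 0.783%. An assumed 1% of unconverted cytosines would by itself give a level of this size, so the ratio of the levels, 16.0 to 26.9 in these 4, has an uncertain denominator. Levels under 1% in NJCMS5B were found in 158 (10.1%) of all 1560 DMRs that were higher in NJCMS5A. Of the 5 hypo-methylated DMRs none was under 1% in NJCMS5A, beside 203 (10.3%) of all 1967 DMRs that were lower in NJCMS5A. With 5 DMRs, that count is a description. The lowest of the 5 was the second of Glyma.U016900 with 1.76%.

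**Figure D3:**
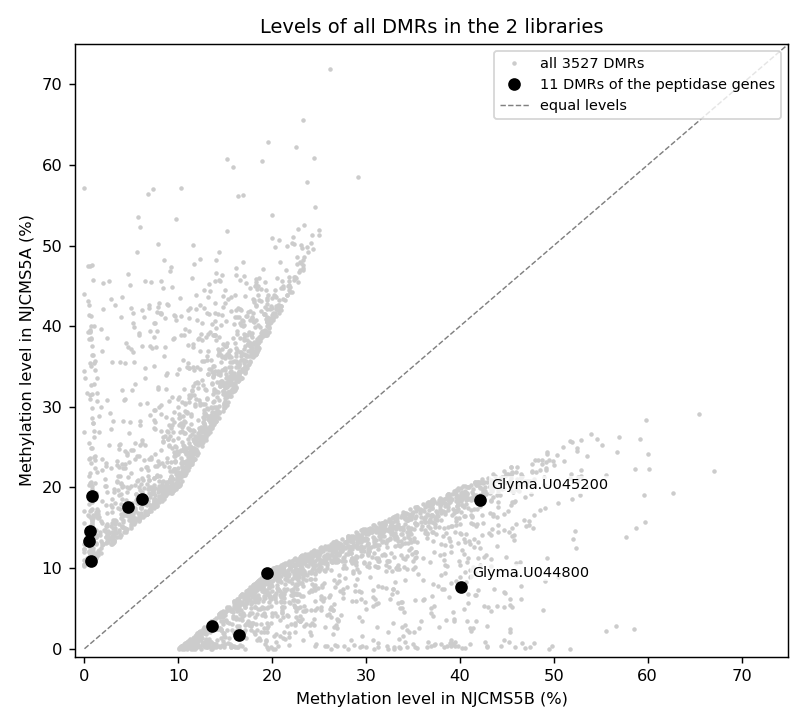
Methylation level in NJCMS5A against that in NJCMS5B, in percent, for all 3527 DMRs (grey) and the 11 of the peptidase genes (black), with a dashed line at equal levels. The black points on the left edge are the 4 DMRs below 1% in NJCMS5B, and Glyma.U045200 and Glyma.U044800 stand apart at over 40% in NJCMS5B.

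Depth was also unequal between the libraries in several of these DMRs. It was higher in NJCMS5A in 8 of the 11 DMRs, beside 57.5% of all DMRs, and in 6 after division by the median ratio of all DMRs, 1.05. The ratio of depth in NJCMS5A to that in NJCMS5B ranged from 0.913 to 1.73 over the 11, with quartiles of 0.868 and 1.26 over all DMRs. In the 4 DMRs with under 1% in NJCMS5B the ratio was 1.27 to 1.73. Over all 158 DMRs of that kind in the series the median ratio was 1.04. The part of unequal depth in the levels of these 4 DMRs was not tested.

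**Figure D4:**
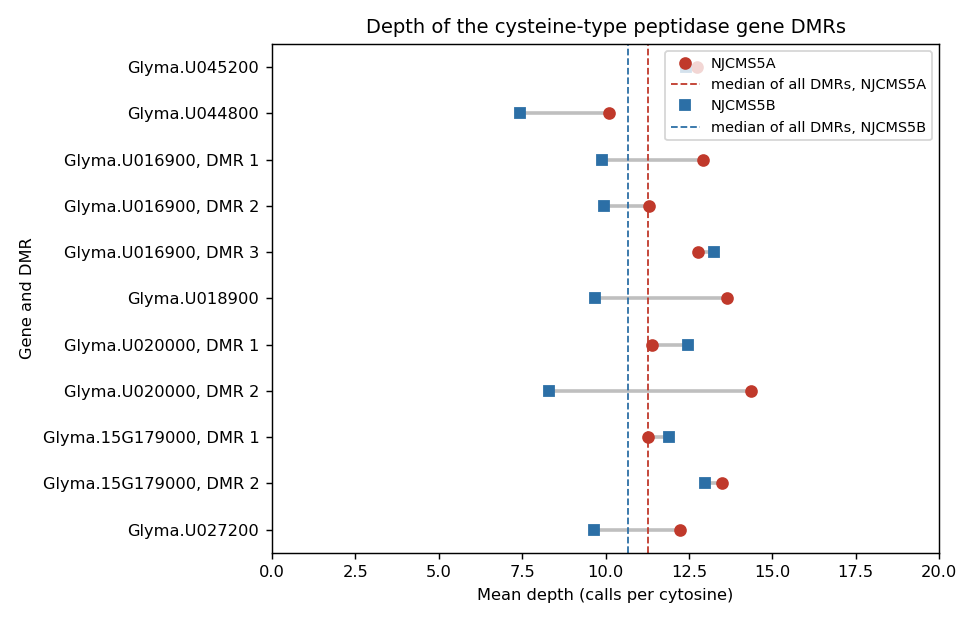
Mean depth, in calls per cytosine, of each of the 11 DMRs in NJCMS5A (red circles) and NJCMS5B (blue squares), with dashed lines at the medians over all DMRs, 11.3 and 10.7. Depth is nearly equal for Glyma.U045200 and most unequal for the second DMR of Glyma.U020000.

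By position, 5 of the 7 genes had a DMR that overlapped the promoter, the 2 kb upstream of the gene, beside 68.0% of all DMGs. In Glyma.U018900, Glyma.U020000 and Glyma.U027200 the promoter was the only region touched, beside 23.9% of all DMGs. An exon was overlapped in 3 genes and an intron in 2, beside 57.5% and 52.4% of all DMGs. Of the 7 DMRs that overlapped a promoter, 3 were lower in NJCMS5A, at Glyma.U045200, Glyma.U020000 and Glyma.U016900. Over the 600 DMRs annotated to a gene in any region, 64.8% were lower. That share was not computed for promoter DMRs alone, so the count is a description.

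The other peptidase terms held further DMGs. Peptidase activity as a whole had 12, the 7 members among them, of 1513 background genes. This is 0.793% of that term, against 2.56% for cysteine-type peptidase activity (7 of 273) and 0.878% for all genes in the table (334 of 38033). Of the 12, 6 had lower DMRs only, 2 had higher DMRs only and 4 had both. Endopeptidase activity had 9 DMGs and proteolysis 10, with 5 of the members among the latter. Aspartic-type and metallopeptidase activity each had 1 DMG, and the 1 of serine-type peptidase activity was the member Glyma.U020000. These terms overlap, and their counts are a description without a test.

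**Figure D5:**
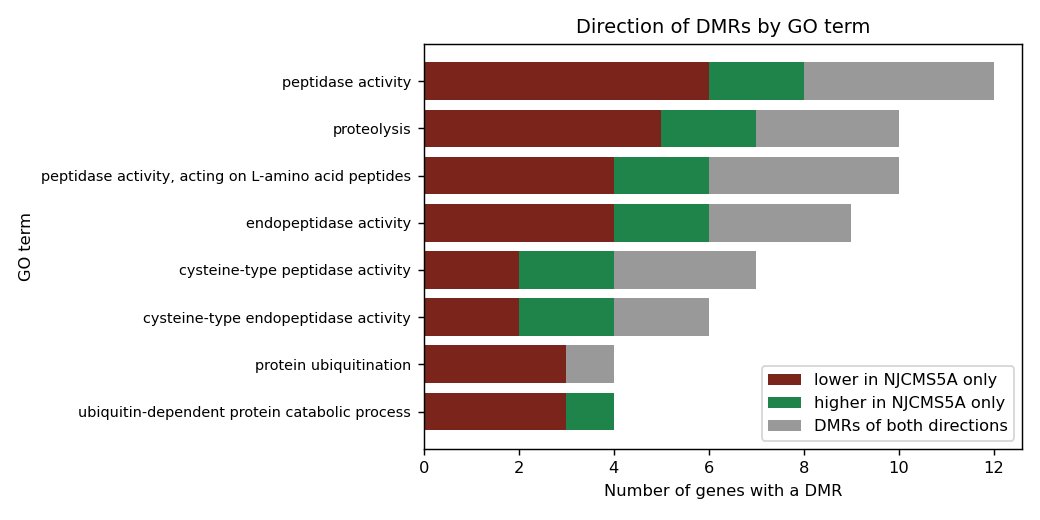
Number of DMGs (horizontal axis) in each peptidase or ubiquitin GO term with more than 1 DMG, split by whether their DMRs were only lower in NJCMS5A (dark red), only higher (green) or of both directions (grey). Of the 7 cysteine-type peptidase genes, 2, 2 and 3 fall in these classes.

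Outside the members, 8 DMGs were annotated to peptidase activity or proteolysis, with 6 in the lower class, 1 in the higher and 1 in both. They had 15 DMRs, of which 11 were lower in NJCMS5A. The largest decrease among those that both libraries covered at least 10 times was in an exon and the 3′UTR of Glyma.U026800, annotated as a metalloendopeptidase. Its level was 13.7% in NJCMS5A and 32.6% in NJCMS5B at that DMR, a difference of -18.9 percentage points, and its 8 DMRs were also of both directions. The largest increase was in a DMR that overlapped the promoter of Glyma.U012600. This gene is annotated to ubiquitin-dependent protein catabolism, the breakdown of proteins that starts with the attachment of ubiquitin. The DMR had 15.3% in NJCMS5A and 0.813% in NJCMS5B. The 1 DMG annotated as an inhibitor of cysteine-type endopeptidases, Glyma.11G064200, was also lower in NJCMS5A, by 13.3 percentage points, and was named from its term after its values were seen.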

How the data were processed

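Whole-genome bisulfite reads of 1 library per line were aligned by the authors to the soybean genome with Bismark (version 0.12.5), and DMRs were called with swDMR in sliding windows. The deposited methylation level of a DMR is a fraction without units, printed here as a percent, and the deposited depth is the authors' mean coverage per cytosine, not normalized. Coordinates and gene names are those of the deposited tables, whose names carry the suffix Wm82.a2.v1. Level times depth times number of cytosines was whole, within 0.001 calls, in all 3527 DMRs, so the levels hold no correction for unconverted cytosines, and calls were recovered. The authors' p-values, ratios and differences of levels hold their own comparisons and were not used, nor were those of the GO and KEGG tables.

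Direction is the level of NJCMS5A relative to NJCMS5B. Fisher's exact test (two-sided) was run on the calls of each DMR and adjusted over all DMRs, which had already been called. Intervals are 95% Wilson or Newcombe intervals. Of the computations, Fisher's exact test with its adjustment was tested on simulated data, in which calls were independent. The members, lists and tests were chosen with earlier results of these data known. Genes named are the members, genes that share their DMRs and, of other DMGs in peptidase activity or proteolysis, those with the largest increase and decrease at a depth of at least 10. Glyma.11G064200 lies outside this rule and was named after its values were seen. Of the 7 members, 0 had a name in the reference table given. The software was scipy 1.17.1, numpy 2.4.6, pandas 2.3.3 and matplotlib 3.10.9 under Python 3.11.15. Alternatives were minimums for depth, difference and cytosines, single counting of cytosines, an assumed unconverted share, equal weighting of DMRs and pairs on the gene's own sequence.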

Additional observations from a re-analysis of the deposited data

How the results depend on the processing

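The 11 level differences kept their direction and stayed past the threshold of Fisher's exact test in all 33 alternative values in which the calls themselves were changed. Only the threshold could have been missed there, so the kept direction is no evidence of robustness. Each difference was at least 10.1 percentage points, single counting keeps the levels, and the assumed unconverted share moves them far less. The filters leave the difference of a DMR as it is. Counts depended on the filters. Where both libraries had to reach a depth of 10, 3 DMRs were lower and 2 higher in NJCMS5A. The 1 gene left with higher DMRs only was Glyma.U016900, and the 1 left with both was Glyma.15G179000. Glyma.U020000 was left with its lower DMR only. Glyma.U018900, Glyma.U027200 and Glyma.U044800 had no DMR left, with depths of 9.69, 9.66 and 7.44 in NJCMS5B. At that depth the promoter was overlapped in 3 genes, the exon in 1 and the intron in 0. With a difference of at least 20 percentage points, 2 DMRs were lower and 0 higher, 0 genes had higher DMRs only, 0 had both, and the promoter was overlapped in 1 gene, the intron in 1, the 5′UTR in 0 and the 3′UTR in 0. Fewer DMRs were left under both filters, and the same counts over all DMRs were not computed. With only pairs on the gene's own sequence, Glyma.15G179000 was lost, and 2 genes had DMRs of both directions. In that setting 0 genes had a 5′UTR and 0 a 3′UTR DMR. The pooled difference of Glyma.U020000, -7.86 percentage points over all calls, was 1.41 with equal weight per DMR, where its longer DMR no longer outweighs the other, and -10.1 at a depth of 10. That of Glyma.U016900 rose from 5.31 to 12.5 at a depth of 10, and that of Glyma.15G179000 went from 8.34 to 1.10 with equal weight. No paired analysis was possible because each line had 1 library. Depth was 7.44 to 14.4 calls per cytosine. The 4 levels under 1% in NJCMS5B rested on 6 to 28 methylated calls and are of the size of the assumed unconverted share. Neither biological nor technical variation between libraries can be estimated.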
